A study of Mus musculus with 7 samples.

Results

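RNA of mouse liver with activated Myod1 was compared with RNA of its control livers, 1 library labelled Myod1_active against 2 labelled Myod1_control, over every gene locus that was long and abundant enough to compare. A locus (a row of the gene tables) was taken when its status was OK, its span was 300 bp or more and its FPKM reached 1 in at least 1 of the 3 libraries. FPKM is the number of sequenced fragments per transcript length and library size. Of 37468 rows, 13563 met this rule, and 13559 of them, with 13514 symbols, were tested, since 4 had a failed status in another library used for the spread. By their symbols 10305 rows were named genes and 3254 were predicted genes, clones, pseudogenes or small RNAs, which are counted here and not named. Just inside the FPKM minimum lay Zfp846, at 1.001, 0.762 and 0.691 FPKM in Myod1_active and control replicates 1 and 2, and just outside it lay Prtn3, at 0.9997, 0 and 0.365. Just inside the span minimum lay the histone gene Hist1h4k, with 312 bp, and just outside it lay mt-Nd4l, with 297 bp.

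All 3 libraries were made from total RNA of the liver of C57BL/6 mice that carry SunTag-dCas9, a Cas9 protein that binds DNA where a guide RNA matches without cutting it, fused to a repeated peptide tag that recruits several copies of an activator. The Myod1_active and Myod1_control libraries therefore share the SunTag-dCas9 allele. How the activator and the guides were delivered, what the controls received, and how old the mice were are points on which the labels are silent. The remaining 4 libraries of the series, 2 of wild-type and 2 of SunTag-dCas9 liver, entered only the estimate of the spread. Xist lay between 0.00420 and 0.324 FPKM in the 3 libraries compared and between 56.9 and 82.2 in the other 4, and the Y-linked Ddx3y lay between 6.97 and 9.23 FPKM in the 3 and between 0 and 0.0765 in the 4. By these genes the 3 libraries compared read as male and the other 4 as female. The estimate of the spread thus comes largely from libraries of the other sex, and whether it suits the 3 was not tested.

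MyoD, the protein of Myod1, is a basic helix-loop-helix transcription factor that pairs with E proteins, binds E-boxes and can turn cells of other lineages towards skeletal muscle, where Myog, Mef2 factors and then the contractile genes follow it. Liver is mostly hepatocytes, which make plasma proteins, bile acids and the enzymes of fat and drug metabolism. The sinusoidal endothelium, Kupffer cells and stellate cells make up most of the remainder.

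Myod1 (ENSMUSG00000009471; chromosome 7, 53631844 to 53634462 of the mm9 build) was at 3.52 FPKM in Myod1_active and was listed at 0 in both controls. The activated library was thus the only one of the 3 with a value above 0, and Myod1 was also listed at 0 in the 4 wild-type and SunTag libraries. Myod1 therefore met the FPKM minimum only through Myod1_active. Between scaled libraries its log2(FPKM + 1) was 2.04 higher (SE 0.184, limma adjusted p = 0.0271), a value that depends on the added 1 and is no fold. Here and below, a gap is the difference of log2(scaled FPKM + 1) between Myod1_active and the mean of the controls, where scaling divides each library by the median of its ratios to the geometric mean. FPKM values are printed as deposited, and above, below and between refer to scaled values. The added 1 makes a gap understate the change of low genes. limma is a linear model that estimates each row's spread over the 7 libraries and moderates it across rows. With 0 in all 6 other libraries Myod1 has no spread of its own, so its SE is borrowed from other rows (0.00675 with no FPKM filter) and its p-value says nothing about how far Myod1 varies between replicates. The activated arm has 1 library and no replicate check of its own, and the fit assumes that it varies like the other groups. Of these groups, wild-type and SunTag read as the other sex. Whether each library is a different mouse is not stated by the labels, and a p-value then reflects only how far libraries differ, which may be technical. The Myod1 call ended without WT replicate 1 (adjusted p = 0.227), WT replicate 2 (0.234), SunTag replicate 1 (0.0707) or SunTag replicate 2 (0.0687), with a pseudocount of 0.1 (0.167) and in a fit of the 3 libraries alone (0.315).

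The other muscle-determining factors lay near or at 0. In Myod1_active Myog had an FPKM of 0, and control replicate 2 alone gave it a value, 0.0424. Neither Myf5 nor Myf6 had any signal in the 3 libraries, each with an FPKM of 0. Of 21 listed myogenic regulators 10 were abundant enough to test. Among these 7 lay above both controls and 3 below, where 40.9% of all rows lay above and 34.7% below. Myod1 alone passed the test; of all 13559 rows 7 (0.0516%) passed as higher. Hes6, a factor that promotes differentiation, was at 142 FPKM in Myod1_active against 72.3 and 63.0 in the controls (gap 0.76). Id3, which binds E proteins and keeps them from DNA, was at 75.2 FPKM against 112 and 86.7 (gap -0.69). The other Id genes of the list, Id1 and Id2, lay the other way, above both controls (gaps 0.45 and 0.50). Hes6, Id1, Id2 and Id3 all lay outside the control range without passing. The list's median gap was 0.32, where the median over all 13559 rows was 0.03.

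Genes downstream of MyoD in muscle were mostly too low to test. Of 20 early target genes 4 were tested, 2 above and 1 below both controls, and Itga7, the integrin alpha chain of muscle, was at 8.97 FPKM against 3.44 and 3.51 (gap 0.89). Of 31 skeletal muscle contractile genes 6 were tested, 3 above and 2 below both controls, and of 14 heart muscle genes none reached the FPKM minimum. Mylpf, a myosin light chain of fast muscle, was at 4.36 FPKM against 0.144 and 1.31 with a gap of 1.53, and the controls themselves differed by 1.07 on that scale. Tpm1, a tropomyosin made in many cell types, was at 32.6 FPKM against 16.6 and 16.4 (gap 0.65). The 2 contractile genes below both controls were Tnnc1, at 0.584 FPKM against 1.40 and 1.16 (gap -0.66), and Neb (gap -0.23). Both Des, which forms intermediate filaments in muscle (0.208 FPKM against 0.154 and 0.384), and Ckm, which buffers its ATP (0.0194 against 0.0895 and 0.0223), lay under the minimum in the 3 libraries compared, while Des was at 1.62 to 2.47 FPKM in the other 4. Summed over 6 defining skeletal muscle markers the level was 4.63 FPKM in Myod1_active against 0.267 and 1.36, nearly all of it Mylpf, with Myh1 and Tnnc2 at 0 in all 3 libraries.

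Across all rows, the median absolute difference of log2(scaled FPKM + 1) was 0.27 between Myod1_active and control replicate 1, 0.29 between Myod1_active and control replicate 2, and 0.21 between the controls. Myod1_active lay above both controls in 5548 rows (40.9%) and below both in 4704 (34.7%), thus outside their range in 75.6% of rows. If the 3 libraries differed only at random, any 1 would still lie outside the range of the other 2 in most rows. The share outside is thus a baseline and not in itself a sign of change. By 2-fold or more it lay above both controls in 300 rows (2.21%) and below both in 266 (1.96%). Without scaling these 2-fold counts were 603 and 136, since the median row then lay 0.29 higher in Myod1_active. A clear gap, meaning 2-fold or more and at least 3 times the difference between the controls, was found in 175 rows above (1.29%) and 132 rows below (0.974%). Of these 307 (2.26% of all rows), 133 higher and 94 lower rows were named genes. In the other 125 higher and 134 lower rows past 2-fold the gap was less than 3 times the control difference. Rows with a mean FPKM under 1 made up 44 of the 300 higher and 9 of the 266 lower 2-fold rows. They made up 38 of the 175 higher and 3 of the 132 lower clear gaps. The FPKM minimum favours higher rows there, so the surplus of higher rows is not read as a direction. These counts carry no test, since with 1 library on one side and 2 on the other the smallest two-sided p of an exact rank test is 0.667.

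**Figure D1:**
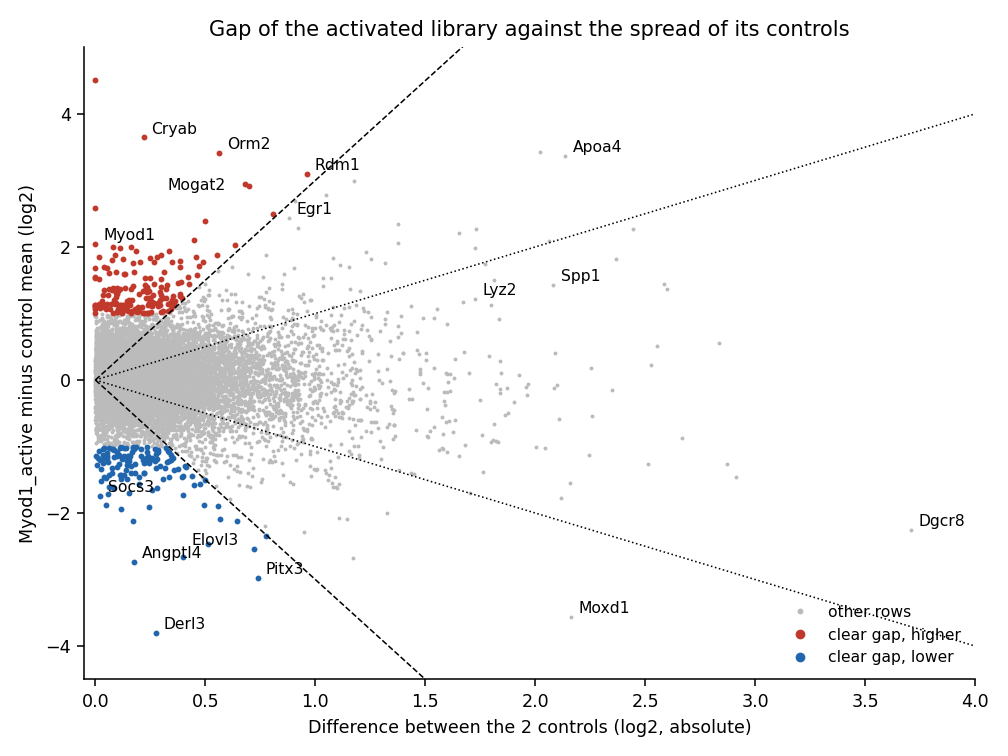
Each point is 1 of 13559 rows. The horizontal axis is the absolute difference between the 2 Myod1_control libraries and the vertical axis the difference between Myod1_active and the control mean, both in log2(scaled FPKM + 1). Dotted lines mark a gap equal to the control difference and dashed lines a gap 3 times as large, and the 175 higher and 132 lower rows with a clear gap are coloured. Apoa4, Moxd1 and Dgcr8 lie far from 0 with controls that also lie far apart.

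Abundant loci lay 2-fold below the controls more often than above. Among 864 rows with a mean FPKM of 100 or more over the 3 libraries, 11 (1.27%) were 2-fold or more above both controls and 73 (8.45%) below. Without scaling the latter counts were 18 above and 40 below. The abundant loci that lay lower were thus the larger group under both. The 917 rows with a mean under 1 are not read in this way, since such a row enters only if 1 library reached an FPKM of 1, which favours rows that are high in the single activated library.

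**Figure D2:**
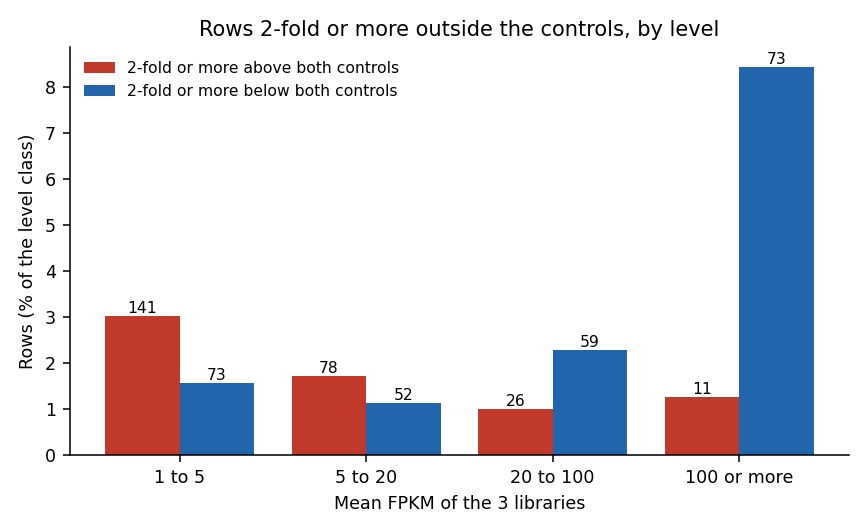
Bars give the percent of rows in each class of mean FPKM that lay 2-fold or more above (red) or below (blue) both controls, and the number on each bar is the count of rows; rows with a mean under 1 are left out. In the class of 100 or more, 73 rows lay below and 11 above.

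Of 13559 rows, 7 rose (0.0516%) and 3 fell (0.0221%) at a limma adjusted p under 0.05, 10 in all (0.0738%), and in each Myod1_active lay outside the control range. Named genes were 4 that rose, Cryab, Orm2, Myod1 and Cpm, and 3 that fell, Derl3, Pitx3 and Elovl3. The 3 remaining rows that rose were predicted genes, of which 1 was, like Myod1, at 0 in all 6 other libraries. That row, Myod1 and Cpm entered the test only through the library in which they were high, which favours calls of higher rows. At an unadjusted p under 0.05 there were 1972 rows (14.5%). The 10 became 2 without either WT library, 4 without SunTag replicate 2 and 30 without Myod1_control replicate 1.

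Cryab (chromosome 9, 50560863 to 50564738), the small heat shock protein alpha B crystallin, was at 28.0 FPKM in Myod1_active against 0.826 and 1.11 in the controls. Myod1_active was far above both controls, which lay close together, and the rise was 3.65 (SE 0.275, limma adjusted p = 0.0206). The call ended without WT replicate 1 or 2 (adjusted p = 0.116 each), without Myod1_control replicate 1 (0.0505) and without Myod1_control replicate 2 (0.0666). Cpm (chromosome 10, 117066556 to 117124408), a carboxypeptidase anchored in the cell membrane, was at 7.76 FPKM in Myod1_active against 0.943 and 0.838 in the controls. Cpm, like Myod1, was tested only because Myod1_active reached an FPKM of 1, as both controls lay under it. It rose by 1.99 (SE 0.182, limma adjusted p = 0.0271). That call ended without WT replicate 1 (0.227) or 2 (0.234), SunTag replicate 1 (0.0707) or 2 (0.0687), or Myod1_control replicate 2 (0.0627).

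Orm2 (chromosome 4, 63023483 to 63026912), an acid glycoprotein that hepatocytes secrete in the acute phase response, was at 814 FPKM in Myod1_active against 74.4 and 49.9 in the controls. Its rise was 3.41 (SE 0.296, limma adjusted p = 0.0271), with both controls far below the activated library. The neighbouring copy Orm3 (chromosome 4, 63017196 to 63020545) was at 78.3 FPKM in Myod1_active against 9.69 and 5.69 in the controls (gap 2.94, adjusted p = 0.0554). Orm1, a more abundant gene of the same family, was at 1084 FPKM against 574 and 442 in the controls. It lay above both by less than 2-fold (gap 0.79, limma adjusted p = 0.274). How reads were divided between these similar genes is not stated in the labels, and each value is uncertain. The call for Orm2 ended without WT replicate 1 (0.165) or 2 (0.17), SunTag replicate 2 (0.0503) or Myod1_control replicate 2 (0.072). The 250 bases before the start of Orm2 and Orm3 are shown because both had a clear gap above the controls. They come from RefSeq on GRCm38.p6, at chr4:63362199-63362448 (+ strand) and chr4:63355908-63356157 (+ strand). Capitals mark the E-box CAGCTG, a palindrome that reads alike on both strands.
Orm2: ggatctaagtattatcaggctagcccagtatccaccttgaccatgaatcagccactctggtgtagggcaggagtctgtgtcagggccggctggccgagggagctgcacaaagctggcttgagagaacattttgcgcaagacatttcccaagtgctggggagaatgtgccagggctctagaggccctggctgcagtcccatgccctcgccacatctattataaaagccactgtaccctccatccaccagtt
Orm3: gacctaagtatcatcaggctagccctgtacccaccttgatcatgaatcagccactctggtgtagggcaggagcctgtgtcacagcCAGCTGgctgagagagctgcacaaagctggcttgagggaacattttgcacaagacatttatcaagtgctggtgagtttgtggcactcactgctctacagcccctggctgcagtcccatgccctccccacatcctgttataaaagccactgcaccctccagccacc
In a global alignment 219 positions were identical, 26 differed and 10 were gaps. CAGCTG stood in the stretch of Orm3 and not in that of Orm2. Of 32851 RefSeq promoters of this length 13% held it, as did 11.5% of the 10648 promoters matched to a tested symbol, 15.6% of 135 at genes with a clear gap above the controls and 18.6% of 97 at genes with a clear gap below. In all, 8276 of 13514 symbols had a promoter in the RefSeq table.

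Derl3 (chromosome 10, 75356143 to 75358686), which helps move misfolded proteins out of the endoplasmic reticulum for degradation, was at 0.935 FPKM in Myod1_active against 24.8 and 20.2 in the controls. It had the largest fall of any tested row, -3.80 (SE 0.197, limma adjusted p = 0.00266). It passed with each WT, SunTag or Myod1_control library left out in turn, at adjusted p between 0.0123 and 0.0425, and not in a fit of the 3 libraries alone (0.202). Elovl3 (chromosome 19, 46206387 to 46210184), an elongase of very long chain fatty acids, was at 63.9 FPKM in Myod1_active against 380.1 and 287 in the controls and fell by 2.66 (SE 0.228, limma adjusted p = 0.0271). Pitx3 (chromosome 19, 46210175 to 46222865), a homeobox factor best known from dopamine neurons and lens, was at 4.36 FPKM in Myod1_active against 44.4 and 26.1 in the controls and fell by 2.98 (SE 0.302, limma adjusted p = 0.0444). The Pitx3 and Elovl3 loci overlap by 10 bases, and reads of the 2 cannot be told apart within those bases. The Elovl3 call ended without WT replicate 1 (0.165) or 2 (0.17), SunTag replicate 2 (0.0509) or Myod1_control replicate 2 (0.0534). The Pitx3 call ended without either WT library (0.235 each), SunTag replicate 1 (0.0707) or SunTag replicate 2 (0.0687). With a pseudocount of 0.1 Elovl3 (0.0925), Pitx3 (0.123), Cpm (0.123) and Myod1 (0.167) did not pass. Cpm also did not pass with a filter at FPKM 5 (0.104), nor Pitx3 with no filter (0.087) or with rows under 300 bp kept (0.0627), and none of the 7 named genes passed in a fit of the 3 libraries alone (0.202 to 0.315).

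Below these calls, the named genes with the largest clear gaps above the controls were a mixed group. Rdm1, which takes part in recombination, was at 129.6 FPKM in Myod1_active against 16.3 and 7.91 in the controls (gap 3.10), and Arl4d, a small GTPase whose locus lies 29440 bp from it on chromosome 11, was at 112 FPKM against 19.9 and 13.8 (gap 2.39). Mogat2, an acyltransferase of triglyceride synthesis that is prominent in intestine, was at 10.5 FPKM against 0.682 and 0.0687 (gap 2.91). Fabp5, a fatty acid binding protein, was at 124 FPKM against 26.6 and 19.2 (gap 2.10). In each of these 4 the activated library was several times the higher control.

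Furin, the protease that cuts many secreted precursors in the Golgi, was at 495 FPKM in Myod1_active against 96.2 and 104 in the controls. Its controls differed by 0.11 on the log2 scale and its gap was 1.99, though limma did not call it (adjusted p = 0.0784). Pdzk1ip1, a small membrane protein, was at 20.8 FPKM against 3.27 and 1.47 (gap 2.49), and Bcam, a laminin-binding surface glycoprotein, at 7.43 FPKM against 0.780 and 1.01 (gap 1.94). Like Cryab, Orm2, Orm3 and Cpm, these are among the 12 largest clear gaps above the controls among named genes that reached an FPKM of 5. Without scaling, Orm3, Mogat2 (limma adjusted p = 0.0307 each), Furin (0.0357) and Rdm1 (0.0393) passed. Rdm1 and Mogat2 also passed without Myod1_control replicate 1 (0.0403 each), and Furin without SunTag replicate 1 (0.0489).

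Of the 12 largest clear gaps below the controls, Angptl4, Elovl3, Nr1i3, Hsd3b5 and Cyp4a32 belong to genes of lipid, steroid or drug metabolism. Angptl4, a secreted inhibitor of lipoprotein lipase, was at 11.2 FPKM in Myod1_active against 69.6 and 61.3 in the controls (gap -2.73, limma adjusted p = 0.105). Its controls differed by only 0.18. Without SunTag replicate 1 or 2 Angptl4 passed (adjusted p = 0.0151 and 0.0148). Nr1i3, the nuclear receptor CAR that drives drug-metabolising enzymes, was at 16.8 FPKM against 55.1 and 94.5 (gap -2.34). Hsd3b5, of the 3β-hydroxysteroid dehydrogenase family, was at 20.2 FPKM against 88.3 and 59.0 (gap -2.08), the fatty acid omega-hydroxylase Cyp4a32 at 33.5 FPKM against 84.7 and 125 (gap -1.89) and Keg1, an acyltransferase-like gene, at 43.4 FPKM against 129.6 and 134 (gap -1.88). In all of these the activated library lay below the lower control.

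Beside Derl3 and Pitx3, the rest of the 12 were Socs3, Zbtb16, Mapk15 and Xlr3a. Socs3, the feedback inhibitor of interleukin 6 signalling, was at 4.60 FPKM in Myod1_active against 14.8 and 14.5 in the controls (gap -1.75), with controls that differed by only 0.02. Zbtb16, a zinc finger transcription factor induced by glucocorticoids, was at 2.63 FPKM against 11.3 and 10.3 (gap -1.95), and Mapk15, an atypical MAP kinase, at 7.74 FPKM against 21.4 and 30.5 (gap -1.89). Xlr3a, of an X-linked family with near-identical copies and thus uncertain, was at 2.47 FPKM against 14.9 and 9.15 (gap -2.12). None of these 4 passed limma's test in the main fit, though Socs3 did with a pseudocount of 5.

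**Figure D3:**
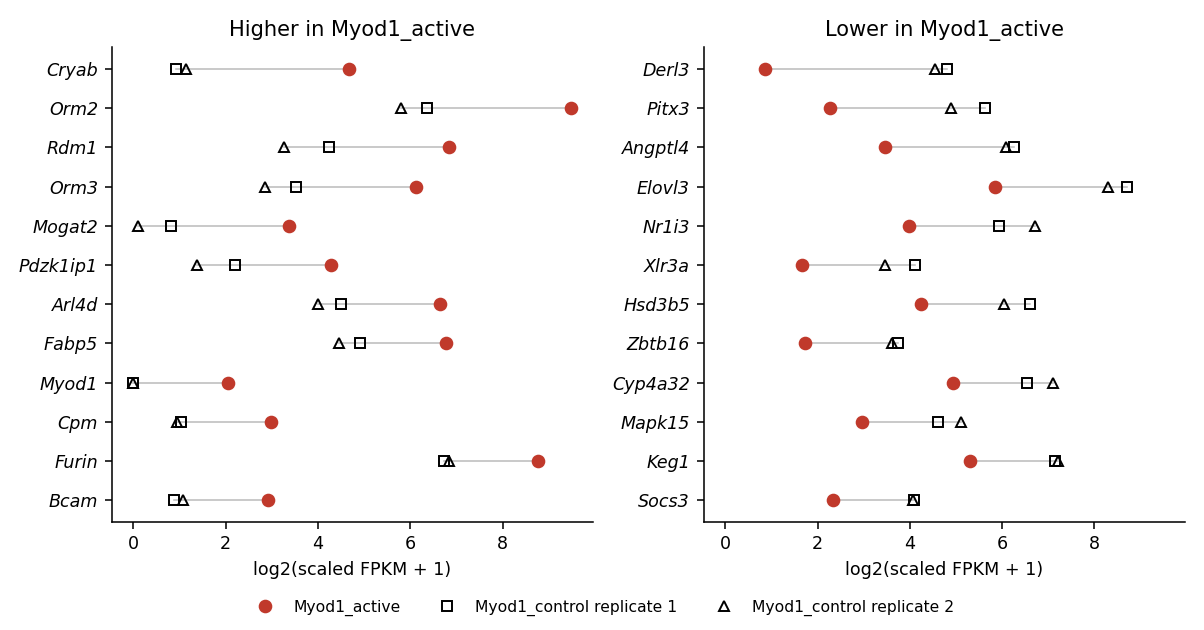
Values of Myod1 and of other genes among the largest clear gaps in each direction, as log2(scaled FPKM + 1) on the horizontal axis. The filled circle is the Myod1_active library, the open square and triangle are Myod1_control replicates 1 and 2, and the grey line joins the lowest and highest of the 3. In each of the 24 genes the circle lies outside the span between the square and the triangle.

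Some of the widest gaps came with controls that disagreed. Apoa4, an apolipoprotein of intestine and fatty liver, was at 1063 FPKM in Myod1_active against 173 and 38.6 in the controls, a gap of 3.37 beside a control difference of 2.13. It passed limma's test without Myod1_control replicate 1 (adjusted p = 0.0464). Moxd1, a monooxygenase-like gene, was at 0.409 FPKM against 30.4 and 6.05 (gap -3.57, control difference 2.16). It passed limma's test, among the alternatives run, only when a control was left out (adjusted p = 0.0185 without replicate 1 and 0.00423 without replicate 2). Dgcr8, a subunit of the microRNA processing complex picked out after its values were seen, was at 3.53 FPKM against 64.0 and 4.03, so the activated library lay next to control replicate 2 and only replicate 1 was high. Socs2, the growth hormone feedback inhibitor, lay between controls that differed by 2.67, at 16.2 FPKM against 63.8 and 9.25.

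Gene groups are given below as counts of tested members above or below both controls, to be read against the 40.9% and 34.7% of all rows, and as a median gap, to be read against 0.03. Of all rows 2.21% were 2-fold or more higher and 1.96% lower, and 1.29% and 0.974% had a clear gap above and below. Only 0.0738% of all rows passed limma's test, so a list without a call is no result about its members. The lists were chosen with earlier results of these data known, some genes stand on 2 lists, and no list was tested as a set. Where 5 or fewer members had a clear gap they are named for most lists, and those outside the naming rule were therefore chosen after their values were seen. Without scaling list medians lay about 0.3 higher, as the median row did, and the sign of the median then turned from negative to positive in 15 of the 45 lists with 5 or more tested members, which are named with their values in the closing section. Fewer cells of a type and less RNA per cell cannot be told apart in these bulk libraries.

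**Figure D4:**
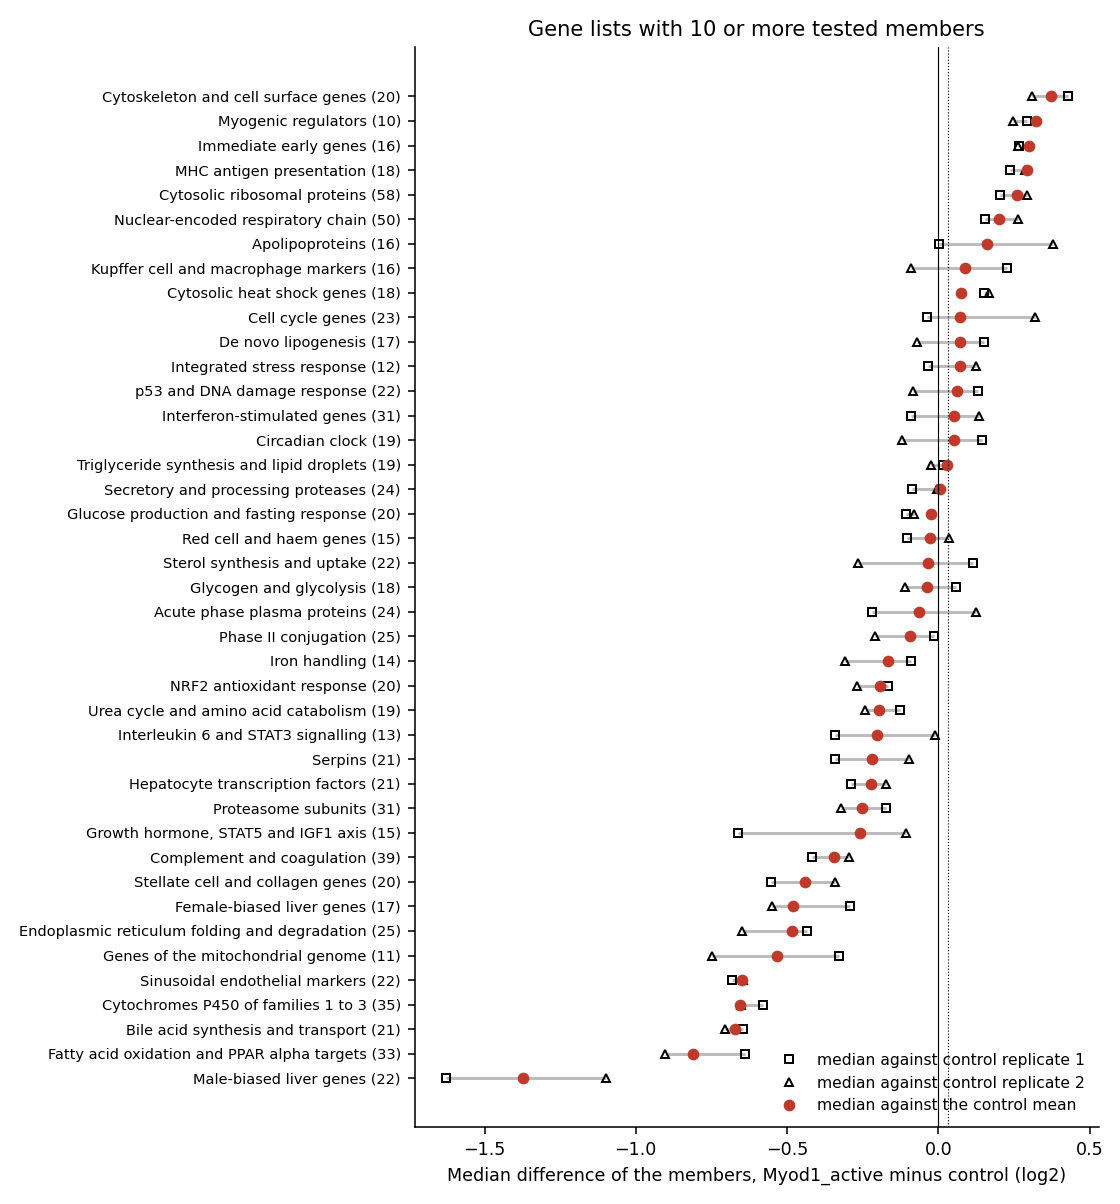
Lists with 10 or more tested members (number in brackets), ordered by the median of their members' gaps. The red circle is the median difference of Myod1_active from the control mean in log2(scaled FPKM + 1), the open square and triangle are the medians against control replicates 1 and 2 alone, and the dotted line marks the median row at 0.03. Male-biased liver genes lie lowest at -1.37, and their medians against the 2 controls, -1.63 and -1.10, also lie far apart.

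Genes of fatty acid oxidation and targets of PPAR alpha, the nuclear receptor that turns on fat burning in fasting liver, lay lower nearly throughout. Of 33 tested members 30 lay below both controls and 1 above, 14 were 2-fold or more lower, 5 had a clear gap, and 0 passed limma's test. The median gap was -0.81. The 5 with a clear gap were Angptl4, Acaa1b, Fabp1, Vnn1 and Creb3l3. Fabp1, the main fatty acid binding protein of hepatocytes, was at 1299.7 FPKM in Myod1_active against 2707 and 3092 in the controls (gap -1.46). Acaa1b, a peroxisomal thiolase, was at 441 FPKM against 851 and 1196 (gap -1.50), and Creb3l3, a transcription factor bound to the endoplasmic reticulum that acts with PPAR alpha, at 134 FPKM against 228 and 235 (gap -1.10). The pantetheinase Vnn1 was at 4.09 FPKM against 9.38 and 9.89 (gap -1.32). Acot1 and Cyp4a10, an acyl-CoA thioesterase and an omega-hydroxylase, had larger gaps, -2.28 and -2.20, with controls further apart: Acot1 was at 12.6 FPKM against 38.0 and 74.0 and Cyp4a10 at 102 FPKM against 293 and 498.

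Synthesis and storage of fat did not lie to one side. Of 17 tested genes of de novo lipogenesis 7 lay above and 8 below both controls, with a median of 0.07. Fasn, the fatty acid synthase, was at 673 FPKM against 174 and 379.8 (gap 1.08) with controls that differed by 1.13. Insig2, which holds SREBP in the endoplasmic reticulum, was the 1 member with a clear gap, at 242 FPKM against 517 and 538 (gap -1.43). Of 19 genes of triglyceride synthesis and lipid droplets 8 lay above and 8 below; Plin2, a coat protein of lipid droplets, was at 268 FPKM against 444 and 629 (gap -1.28). Of 22 tested genes of sterol synthesis and uptake 3 lay above and 7 below, and none was 2-fold outside the controls.

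Bile acid genes lay lower. Of 21 tested members 17 lay below both controls and 2 above, 7 by 2-fold or more, and the median was -0.67. Clear gaps were found for the synthesis enzymes Cyp8b1, a sterol 12-alpha-hydroxylase, at 97.9 FPKM in Myod1_active against 248 and 237 in the controls (gap -1.61), and Cyp27a1, a sterol 27-hydroxylase, at 219 FPKM against 344 and 371 (gap -1.01). They were also found for the transporters Slco1a1 (39.8 against 111 and 91.2, gap -1.62), Slco1b2 (119.6 against 201 and 192, gap -1.02) and Abcc3 (79.7 against 147 and 187, gap -1.35), again in FPKM. The first 2 of these take up organic anions from blood and Abcc3 exports them back to it. None of the 21 passed limma's test.

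Cytochromes P450 of families 1 to 3, the enzymes that oxidise drugs and steroids, lay lower in most members. Of 35 tested members 31 lay below both controls and 3 above, 9 were 2-fold or more lower and 1 higher, and the median was -0.65. Cyp2e1, which oxidises ethanol and paracetamol, was at 1203 FPKM in Myod1_active against 2896 and 3045 in the controls (gap -1.61, limma adjusted p = 0.171), with controls that differed by only 0.08. Cyp2c54, Cyp2c50 and Cyp2c37, neighbours on chromosome 19 that can share reads, had clear gaps of -1.25, -1.14 and -1.01. Cyp2b10, the usual marker of CAR activity, lay the other way at 5.85 FPKM against 0.688 and 1.29 (gap 1.58), while Nr1i3, which encodes CAR, lay lower (above). Among 25 tested phase II conjugation genes 8 lay above and 13 below both controls, and the clear gaps belonged to Ugt2b5, Ugt2b37 and Ugt2b38, at -1.29, -1.19 and -1.30, near-identical glucuronosyltransferases that are uncertain one by one.

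Genes that are higher in male than in female liver lay furthest from the controls among the lists with 10 or more tested members, and the controls themselves differed in them. Of 22 tested members 21 lay below both controls and 17 by 2-fold or more, but 7 had a clear gap, and the median was -1.37. Elovl3 was the member that passed, with a spread drawn largely from the libraries that read as female. Besides Elovl3, Hsd3b5, Keg1 and Slco1a1 (above), the clear gaps were C6, Ugt2b38 and Mup3, the last of a family of near-identical urinary protein genes. C6, a complement component, was at 71.0 FPKM against 164 and 123 (gap -1.30). Of 17 tested female-biased genes 7 lay above and 10 below, with a median of -0.48. In the growth hormone axis, which sets this bias, 9 of 15 tested genes lay below both controls and 0 above, with a median of -0.26 that turned to 0.0481 without scaling. Igfals, which stabilises circulating IGF1, was at 55.3 FPKM against 90.5 and 101 (gap -1.09), the 1 clear gap there.

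Plasma protein genes were split. Of 39 tested complement and coagulation genes 29 lay below both controls and 1 above, with a median of -0.34 and 1 clear gap, C6. Complement C3 was at 3561 FPKM against 4836 and 6383 (gap -0.95). Of 24 acute phase genes 8 lay above and 8 below both controls. Clear gaps above were Orm2, Orm3 and Chi3l1, and the clear gap below was Crp. Chi3l1, a secreted chitinase-like lectin, was at 4.14 FPKM against 0.365 and 0.126 (gap 1.88; it passed limma's test without scaling, adjusted p = 0.0307, and without Myod1_control replicate 1, 0.0403), and Crp, the C-reactive protein gene, at 95.3 FPKM against 171 and 159 (gap -1.09). Ahsg, a plasma glycoprotein that falls in the acute phase and the most abundant member, was at 5128 FPKM against 4565 and 3668 (gap 0.02), between the controls once scaled. In interleukin 6 and STAT3 signalling 4 of 13 tested genes lay above and 7 below. Clear gaps there were Socs3 and the receptor chain Il6ra, which was at 3.09 FPKM against 8.29 and 9.02 (gap -1.49). Cebpb, a transcription factor of the same response, was at 198 FPKM against 120.1 and 83.6 (gap 0.67).

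Genes of folding and degradation in the endoplasmic reticulum mostly lay lower, Derl3 by far the most. Of 25 tested members 18 lay below both controls and 3 above, with a median of -0.48; 5 were 2-fold or more lower, and Derl3 and Sdf2l1 had a clear gap. Sdf2l1, a chaperone cofactor, was at 46.3 FPKM in Myod1_active against 74.2 and 89.8 in the controls (gap -1.11), and Pdia4, a disulfide isomerase, at 97.8 FPKM against 153 and 223 (gap -1.21). In Creld2 and Hyou1 control replicate 1 lay below replicate 2 and nearer to the activated library than to replicate 2. Creld2 was at 30.4 FPKM against 37.2 and 75.5 and Hyou1 at 64.3 FPKM against 66.5 and 165. Hspa5, the chaperone BiP, was at 618 FPKM against 531 and 1111 (gap -0.62), between the controls as deposited and just below both after scaling. The endoplasmic reticulum stress element was searched as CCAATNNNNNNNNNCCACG on both strands within 250 bases before the start. It stood there in 9 of the 23 listed genes with a RefSeq promoter, which have 25 promoters. Of all 32851 promoters 37 held it (0.113%), as did 16 of the 10648 matched to a tested symbol (0.15%). The list includes known targets of the element, such as Hspa5, so its share of matches is background and no result of these data. Of those 9 genes 8 lay below both controls, with gaps from -3.80 to -0.24 and a median of -0.68. Of the other genes with a promoter, 8 of 13 tested lay below, with a median of -0.48. The stretches of Derl3, Hspa5 and Creld2 (the last chosen after its value was seen) show the element in the gene that fell, in the best known target and in a gene where the controls differ. They are from RefSeq on GRCm38.p6, at chr10:75893148-75893397 (+ strand), chr2:34771840-34772089 (+ strand) and chr15:88819396-88819645 (+ strand), with the element in capitals.
Derl3: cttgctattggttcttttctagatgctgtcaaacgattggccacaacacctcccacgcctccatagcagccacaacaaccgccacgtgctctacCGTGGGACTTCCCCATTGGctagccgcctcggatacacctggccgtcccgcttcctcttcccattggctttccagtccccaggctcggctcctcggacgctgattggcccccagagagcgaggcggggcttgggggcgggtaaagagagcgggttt
Hspa5: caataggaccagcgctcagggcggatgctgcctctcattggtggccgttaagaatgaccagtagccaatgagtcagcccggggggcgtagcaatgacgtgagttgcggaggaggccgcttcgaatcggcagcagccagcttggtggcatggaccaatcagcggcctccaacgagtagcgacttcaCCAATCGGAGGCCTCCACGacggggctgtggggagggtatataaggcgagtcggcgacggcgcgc
Creld2: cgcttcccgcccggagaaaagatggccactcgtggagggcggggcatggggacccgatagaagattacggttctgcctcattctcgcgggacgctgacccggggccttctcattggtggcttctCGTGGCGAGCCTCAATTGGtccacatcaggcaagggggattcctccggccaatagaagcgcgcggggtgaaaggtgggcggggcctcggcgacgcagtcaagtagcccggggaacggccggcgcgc
The element thus stands before a gene that was lower in Myod1_active by more than any other and before Hspa5, where the activated library lay close to control replicate 1. In Derl3 and Creld2 it reads on the opposite strand from Hspa5, and the bases between its fixed letters differ. A match describes these letters and no binding was measured.

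Cryab was the 1 member of the cytosolic heat shock list past 2-fold. Of 18 tested members 9 lay above and 6 below both controls, with a median of 0.08. Hspb1, another small heat shock protein, was at 25.8 FPKM against 32.8 and 35.0 (gap -0.68), and the inducible Hspa1b was at 6.25 FPKM against 3.51 and 1.93 (gap 0.75, control difference 0.63). Immediate early genes, which cells switch on within minutes of a stimulus, lay higher in 10 of 16 tested members and lower in 3, with 4 past 2-fold. Egr1, a zinc finger factor of this class, was at 27.4 FPKM against 4.88 and 2.23 (gap 2.43, control difference 0.88). Fos, a subunit of AP-1, was at 4.32 FPKM against 0.722 and 0.812 (gap 1.39), and Nr4a1, an orphan nuclear receptor, at 3.87 FPKM against 0.849 and 0.620 (gap 1.30), both clear gaps. None of these immediate early genes passed limma's test in the main fit, though Fos did with a pseudocount of 5.

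Among transcription factors that set hepatocyte identity 13 of 21 lay below both controls and 5 above, with a median of -0.22 that turned to 0.0842 without scaling. Nr1i3 had the 1 clear gap, and Hnf4a was at 119.6 FPKM against 150.0 and 181 (gap -0.77). In glucose production and the fasting response 5 of 20 tested genes lay above and 9 below. Pck1, the first committed enzyme of gluconeogenesis, was at 209.7 FPKM against 636 and 403 (gap -1.57, control difference 0.65), which is no clear gap. The 1 clear gap of that list, not named here, lay above the controls. In the NRF2 antioxidant response 6 of 20 tested genes lay above and 13 below, with a median of -0.19 that turned to 0.11 without scaling. Gclc, a subunit of the glutathione-making ligase, was at 56.7 FPKM against 114 and 144 (gap -1.46) and G6pdx, which supplies NADPH, at 15.7 FPKM against 5.51 and 4.26 (gap 1.23). Of 14 tested genes of iron handling 2 lay above and 7 below, and Hamp2, a paralog of hepcidin, was at 846 FPKM against 297 and 251 (gap 1.32). Of 23 tested cell cycle genes 9 lay above and 3 below, and Ccnd1, the G1 cyclin D1, was at 17.5 FPKM against 6.68 and 5.02 (gap 1.16).

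Ribosomal, respiratory and proteasome genes lay mostly to one side, by small amounts. Of 58 tested cytosolic ribosomal protein genes 55 lay above both controls and 0 below, none by 2-fold, with a median of 0.26. Rpl3, a large-subunit protein, was at 119 FPKM against 61.9 and 59.1 (gap 0.66). Of 50 nuclear-encoded respiratory chain genes 36 lay above and 3 below (median 0.20). All 11 tested genes of the mitochondrial genome lay below both controls with a median of -0.53, which turned to 0.0502 with quantile normalization; mt-Nd2 was at 4347 FPKM against 5189 and 6929. Of 31 proteasome subunits 25 lay below and 4 above, with a median of -0.25 that turned to 0.0502 without scaling.

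The libraries carried the markers of liver. Marker sums are given as deposited, while scaling divides Myod1_active by 1.133 and the controls by 0.916 and 0.913. Scaling thus lowers each sum of Myod1_active relative to both controls. The 5 hepatocyte markers summed to 41413 FPKM in Myod1_active and 44124 and 45525 in the controls, with Alb at 28499.7 against 30585.7 and 35431. Sinusoidal endothelial markers summed to 19.1 against 27.2 and 30.2 FPKM, and of the longer endothelial list 21 of 22 tested genes lay below both controls and 0 above, with a median of -0.65. Pecam1, an adhesion molecule of endothelial cells, was at 1.20 FPKM against 2.74 and 3.71 (gap -1.13), the 1 clear gap there, and the auxiliary TGF beta receptor Eng was at 11.3 FPKM against 15.5 and 14.3 (gap -0.66). Of 20 tested stellate cell and collagen genes 15 lay below and 4 above, with a median of -0.44 and clear gaps for Ecm1 (12.2 against 22.0 and 25.6 FPKM) and Col14a1 (2.81 against 5.89 and 5.10 FPKM). The 5 stellate markers summed to 16.03 FPKM against 20.2 and 16.01, level with replicate 2 as deposited and below both controls once scaled.

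Kupffer cell markers summed to 20.5 FPKM against 29.3 and 26.2, while in the longer macrophage list 7 of 16 tested genes lay above and 6 below. Lyz2, a lysozyme of macrophages and neutrophils, was at 87.3 FPKM against 16.1 and 54.9 (gap 1.21), Itgam, an integrin of infiltrating myeloid cells, at 3.91 FPKM against 0.559 and 1.16 (gap 1.22), and Mpeg1, a perforin-like gene of macrophages, at 32.5 FPKM against 13.7 and 8.68 (gap 1.20); none of the 3 was a clear gap. The 5 cholangiocyte markers summed to 80.0 FPKM against 16.4 and 52.9, mainly through Spp1, a secreted phosphoprotein also made by macrophages, at 70.6 FPKM against 9.55 and 43.2. In Lyz2 and Spp1 control replicate 2 lay nearer to the activated library than to replicate 1. Markers of lymphocytes summed to under 0.2 FPKM in each library, with Nkg7 and Ms4a1 at 0. Neutrophil markers summed to 0.712 to 1.36, adipocyte markers to 0.253 to 0.327 and heart markers to 0 to 0.443. Red cell markers summed to 37.9 FPKM against 45.5 and 39.7 and pancreas markers to 7.53 against 9.92 and 6.28, with Cpa1 and Pnlip at 0. Once scaled, the pancreas sum also lay below both controls. The part of these cell types in the gene groups above was not tested.

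By chromosome, the share of rows 2-fold or more outside the controls ran from 1.59% on chromosome 17 (11 of 690 rows) to 7.66% on chromosome 19 (36 of 470), leaving out the 13 rows of the mitochondrial genome and the 4 of chromosome Y, none of which was 2-fold outside. Chromosome 4, with the Orm and Mup genes and the Cyp4a cluster, followed at 7.57%, and chromosome 7, which carries Myod1, stood at 4.43% against 4.17% of all rows. Of 307 rows with a clear gap 66 lay within 100 kb of another such row, in 42 pairs. In 33 of the pairs both rows lay on the same side of the controls, and 5 pairs overlapped and can share reads. How often rows in general lie this near was not counted, and clusters such as the Orm genes enter several pairs. No excess of neighbours can therefore be read from these counts. The pairs were often gene family members, such as Orm2 and Orm3 or the Cyp2c genes, and also unrelated neighbours. Picked out after their values were seen, Car3, a carbonic anhydrase, lay lower (412 against 851 and 663 FPKM), while the adjacent Car2 lay higher (8.55 against 2.50 and 3.02 FPKM), although both belong to 1 family.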

How the data were processed

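RNA-seq of liver was available as 7 deposited gene tables, 1 per library, of which 3 were compared and the other 4 entered only the spread. Reads were handled by the authors with cutadapt 1.11, TopHat2 2.1.1 and Cufflinks 2.2.1 on mm9, per the submitters' processing notes; RNA came from a Direct-zol kit and standard Illumina libraries, per the labels' protocols. The deposited values are FPKM per gene with a status, per the file headers. Annotation, read length, strand use, read sharing between gene copies and total read counts are not given in the sources used here. Depth is therefore unknown and no counting interval is given. As deposited, FPKM sums were 1260934 in Myod1_active and 1373645 and 1286603 in the controls, with 40.5%, 45.4% and 44.4% in rows under 300 bp, and 13924, 13204 and 13241 rows reached an FPKM of 1.

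Libraries were divided by the median ratio to the geometric mean over the 11159 fitted rows with an FPKM of 1 or more in all 7 (1.133 for Myod1_active, 0.916 and 0.913 for the controls). Log2(scaled FPKM + 1) was fitted with limma 3.58.1 in R 4.3.3, with a mean per group over 7 libraries, a variance trend, 3 residual degrees of freedom, two-sided tests, Benjamini-Hochberg adjustment over 13559 rows and a threshold of 0.05. The code was tested on simulated data. Across rows, which are not independent replicates, the controls correlated at 0.979 and Myod1_active with them at 0.967 and 0.965.

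The members, the 52 lists, the rule for names and the tests were chosen with earlier results of these data known. Named were the rows past the threshold, the 12 largest clear gaps each way among named genes at an FPKM of 5 or more, up to 3 members of each list by gap and the most abundant one, and Myod1, Myog, Myf5, Myf6, Des, Ckm, Cryab, Derl3, Alb, Xist and Ddx3y; fewer are named than the rule allows, and some results are not reported here. Gene positions are on mm9, counted from 1. Promoters were matched by symbol to RefSeq on GRCm38.p6, and no coordinate was moved between builds. Alternatives changed the scaling, the pseudocount, the FPKM and span filters, the variance trend, the libraries fitted and a replicate block.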

Additional observations from a re-analysis of the deposited data

How the results depend on the processing

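The 10 limma calls (7 higher, 3 lower) depended on the settings and on single libraries. The count was 32 without scaling (28 higher, with all 10 shared), 5 with a pseudocount of 0.1 (3 higher) and 40 with a pseudocount of 5 (33 higher, 7 lower). With no filter on FPKM it was 391 (345 higher, 46 lower), and with rows under 300 bp kept 71 (55 and 16). The 3 libraries alone gave 0 with limma (0 higher, 0 lower), where 1704 rows had an unadjusted p under 0.05. Leaving out 1 library in turn gave 2 to 30 calls, 1 to 19 higher and 1 to 11 lower; the count was 2 without either WT library, 4 without SunTag replicate 2 and 30 without Myod1_control replicate 1. The cause was not tested.

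Replicate numbers are shared across groups, but same-numbered libraries did not deviate together (correlations of 0.056 to 0.082), so they were not treated as pairs. A fit with the replicate number as a block gave 4 calls, 3 higher and 1 lower, with 3 shared. Derl3 (adjusted p = 0.0184) and Orm2 (0.0339) passed in it, and Cryab (0.0546), Elovl3 (0.0546), Pitx3 (0.0939), Cpm (0.0973) and Myod1 (0.0973) did not.

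Rows 2-fold or more outside the controls were 603 higher and 136 lower without scaling, 747 and 538 (1285 in all) with a pseudocount of 0.1, 65 and 124 (189) with 5, and 551 and 439 (990) with short rows kept; a filter at FPKM 5 left 185 higher. Rows with a clear gap were 399 and 60 without scaling, 314 and 257 (571) with a pseudocount of 0.1, 36 and 62 (98) with 5, and 338 and 233 (571) with short rows kept; the filter at FPKM 5 left 89 higher and 191 in all. The share of rows outside the control range was 81.71% without scaling, 49.29% with no FPKM filter, 77.18% with the filter at 5 and 73.89% with short rows kept. With 1 control left out neither a clear gap nor a control range can be given.

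Of 45 list medians 15 turned from negative to positive without scaling: metallothioneins (0.16), iron handling (0.0636), glucose production (0.25), urea cycle (0.11), hepatocyte transcription factors (0.0842), serpins (0.0881), NRF2 response (0.11), proteasome subunits (0.0502), acute phase (0.24), interleukin 6 signalling (0.0906), sterol synthesis (0.27), glycogen and glycolysis (0.26), phase II conjugation (0.22), growth hormone axis (0.0481) and red cell genes (0.27). With quantile normalization 7 turned: acute phase (0.31), sterol synthesis (0.0142), glycogen and glycolysis (0.12), phase II conjugation (0.13), the mitochondrial genome (0.0502), circadian clock (-0.0723) and interferon-stimulated genes (-0.0355). With the filter at FPKM 5, 5 of 41 turned: de novo lipogenesis (-0.0946), triglyceride synthesis (-0.0257), circadian clock (-0.12), secretory proteases (-0.0481) and p53 response (-0.015). Without Myod1_control replicate 1, 9 turned and without replicate 2, 7; triglyceride synthesis ran from -0.0273 (without replicate 1) to 0.0349 with 1 library left out. A pseudocount of 5 turned 1, and the other alternatives run on lists turned 0.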

Other observations

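Of 19 tested circadian clock genes 8 lay above and 8 below both controls. The clock repressor Nr1d1 was at 19.3 FPKM in Myod1_active against 7.89 and 4.98 in the controls (gap 1.20). Of 18 tested genes of MHC antigen presentation 10 lay above and 1 below, with a median gap of 0.29 against 0.03 for all rows. Psmb9, an immunoproteasome subunit, was at 11.6 FPKM against 5.45 and 2.77 (gap 1.08), while 31 tested interferon-stimulated genes had a median of 0.05, with 8 above and 6 below. Mt1, a metal-binding metallothionein, was at 30.5 FPKM against 6.53 and 11.9 (gap 1.39, control difference 0.79).

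Genes of the fetal liver and of imprinted growth control were low in all 3 libraries, and 6 of 13 were tested, 3 above and 2 below both controls. The 3 above were under an FPKM of 1 in both controls and were tested only because Myod1_active reached 1. Their position above the controls thus largely follows from the filter. The imprinted RNA H19 was at 2.14 FPKM in Myod1_active against 0.108 and 0.537 in the controls (gap 1.12), Ly6d at 2.65 FPKM against 0.0555 and 0.387 (gap 1.44), the 1 clear gap there, and Afp, the fetal counterpart of albumin, at 1.23 FPKM against 0.245 and 0.388 (gap 0.63). Of 20 tested cytoskeleton and cell surface genes 12 lay above and 5 below, with a median of 0.37. S100a11, a calcium-binding protein, was at 18.5 FPKM against 2.98 and 6.12 (gap 1.60) and Actb, cytoplasmic actin, at 892 FPKM against 443 and 516 (gap 0.59), whereas the tubulin Tubb2a was at 48.2 FPKM against 70.2 and 122 (gap -1.23). None of the genes in these groups passed limma's test.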
